A study of Mus musculus with 7 samples.

Results

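The genes described here carry or block the Wnt signal outside the cell. There are 10 of them, named as a family with earlier results of these data known, of which 7 are ligands (Wnt2, Wnt4, Wnt5a, Wnt5b, Wnt6, Wnt10a and Wnt11) and 3 are secreted inhibitors (Sfrp1, Sfrp2 and Dkk3). A probe was matched to 8 of the 10 genes, 1 probe each, out of 13971 genes named on the arrays and 34967 gene probes. Wnt5a and Wnt6 were not matched to a probe by accession and were not analysed here. Leaving out Wnt2, which was near background on 6 arrays, Dkk3, Wnt10a and Sfrp2 differed most between arrays, over 5.04, 3.45 and 3.41 log2 units. The lowest readings of Dkk3 and Sfrp2 were near background, so the size of their ranges is uncertain. Dkk3 was highest and Wnt10a lowest in αERKO glands, and Wnt4 stayed within a 2-fold range on all 7 arrays. Wnt11 read so near the detection limit that its spread cannot be judged.

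Wnt proteins are secreted, lipid-modified glycoproteins that bind Frizzled receptors together with LRP or ROR co-receptors. In the canonical branch this binding keeps β-catenin from being degraded, and β-catenin then acts with TCF/LEF factors on target genes, while other ligands such as Wnt5b and Wnt11 are better known for β-catenin-independent signals. Secreted Frizzled-related proteins (Sfrp) carry a Frizzled-like domain and bind Wnts outside the cell, and Dickkopf proteins (Dkk) were named for a family whose founder blocks the LRP co-receptor. In the mammary gland Wnt4 is a known paracrine target of progesterone in luminal cells and takes part in side branching.

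The study asked how estrogen receptors α and β bear on mammary development and on mammary alveolar lesions (MAL) induced by the carcinogen DMBA, in mouse mammary gland organ culture (MMOC). Whole glands of 4-week-old female mice were held in serum-free culture for 24 days, made up of 10 days with insulin, prolactin, aldosterone and hydrocortisone and 14 days with insulin alone, and RNA was read on 7 one-colour CodeLink Mouse Whole Genome arrays, 1 per group. Knockout glands came from mice with a deleted ERα gene (αERKO) or ERβ gene (βERKO) on a C57BL6/129SV background and were cultured for 24 days. Wild-type (WT) C57 glands were cultured for 24 days with DMBA, for 24 days without DMBA and for 10 days without DMBA, and BALB/c glands for 24 days without and with vitamin D5. The protocol gives DMBA at 2 µg/ml for 24 h on Day 3. Sample titles name DMBA only for the WT array with DMBA, and for the knockout glands it rests on the study's methods. For the BALB/c glands no title says whether DMBA was given, and the dose of vitamin D5 is not given in the sources used here. The pretreatment of the mice is given in different ways, as daily EGF (25 ng) with progesterone (1 mg) over 5 days in a legend on the arrays, and as estrogen (1 µg) with progesterone over 9 days in the sample protocols. The study pooled RNA of 5 mice for each of its WT, αERKO and βERKO groups, taken here as the WT array with DMBA and the knockout arrays. The spread between mice therefore cannot be seen. For the WT arrays without DMBA and the BALB/c arrays, pooling and pretreatment were not established here. Comparisons of WT glands with and without DMBA may thus also differ in pooling and pretreatment, and these cannot be told apart from DMBA. With 1 array per group no difference given here has a replicate check, and no test was run. Knockouts and WT mice differ in strain background as well as in genotype, and these cannot be told apart.

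A level below is the log2 of a probe's background-subtracted intensity over the median of all gene probes on that array, so 0 is the level of a typical probe, and levels are set against each other only within a probe. A spot is called good where the scanner software found it regular and above background. The lowest good spots lay between -1.88 and -1.47 on this scale, and between 68.4% and 74.2% of gene probes were good on each array. Where a probe was good on only 1 of the arrays compared and its other spot read below that array's lowest good spot, the ratio is a bound. Where the other spot was irregular or near background but read above that value, the ratio is that of the measured values. The only yardstick of error was the SD of the log2 ratio between different probes of the same accession, which was 0.61 for αERKO over WT with DMBA, 0.38 for the array labelled βERKO over WT with DMBA, 0.58 for αERKO over the array labelled βERKO, 0.32 for WT with over without DMBA, 0.23 for 24 over 10 days, 0.33 for BALB/c over WT and 0.23 for vitamin D5. This SD covers differences between probes and not between mice or hybridizations.

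The labels were checked first. Esr1, which encodes ERα, was good on 2 of the 7 arrays, WT with DMBA (-1.02) and BALB/c with vitamin D5 (-0.74), and was near background in αERKO glands (-3.76) but also on the other 4 arrays. Esr2, which encodes ERβ, was highest on the array titled as βERKO glands (0.87, good), and was otherwise good only in WT glands at 24 days without DMBA (-0.55). The Esr2 probe thus went against the label, whether or not it lies in the deleted part, and that array is called the array labelled βERKO throughout. Tissue markers also moved between arrays. All 12 luminal epithelial genes of a marker list, keratins Krt8 and Krt18 among them, were good on all 7 arrays. Their summed level was 604 in αERKO glands, 724 in WT glands with DMBA and between 1075 and 1517 on the other 5 arrays. Skeletal muscle genes, 14 of 16 on the array, summed to 2657 in αERKO glands with all 14 good, and to between 12.4 and 56.5 elsewhere with 7 to 10 good. The summed level of adipocyte genes (11 of 12 on the array) was 4235 in αERKO glands and between 333 and 2494 on the other arrays. In such bulk RNA, fewer cells of a type and less RNA per cell cannot be told apart.

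**Figure D1:**
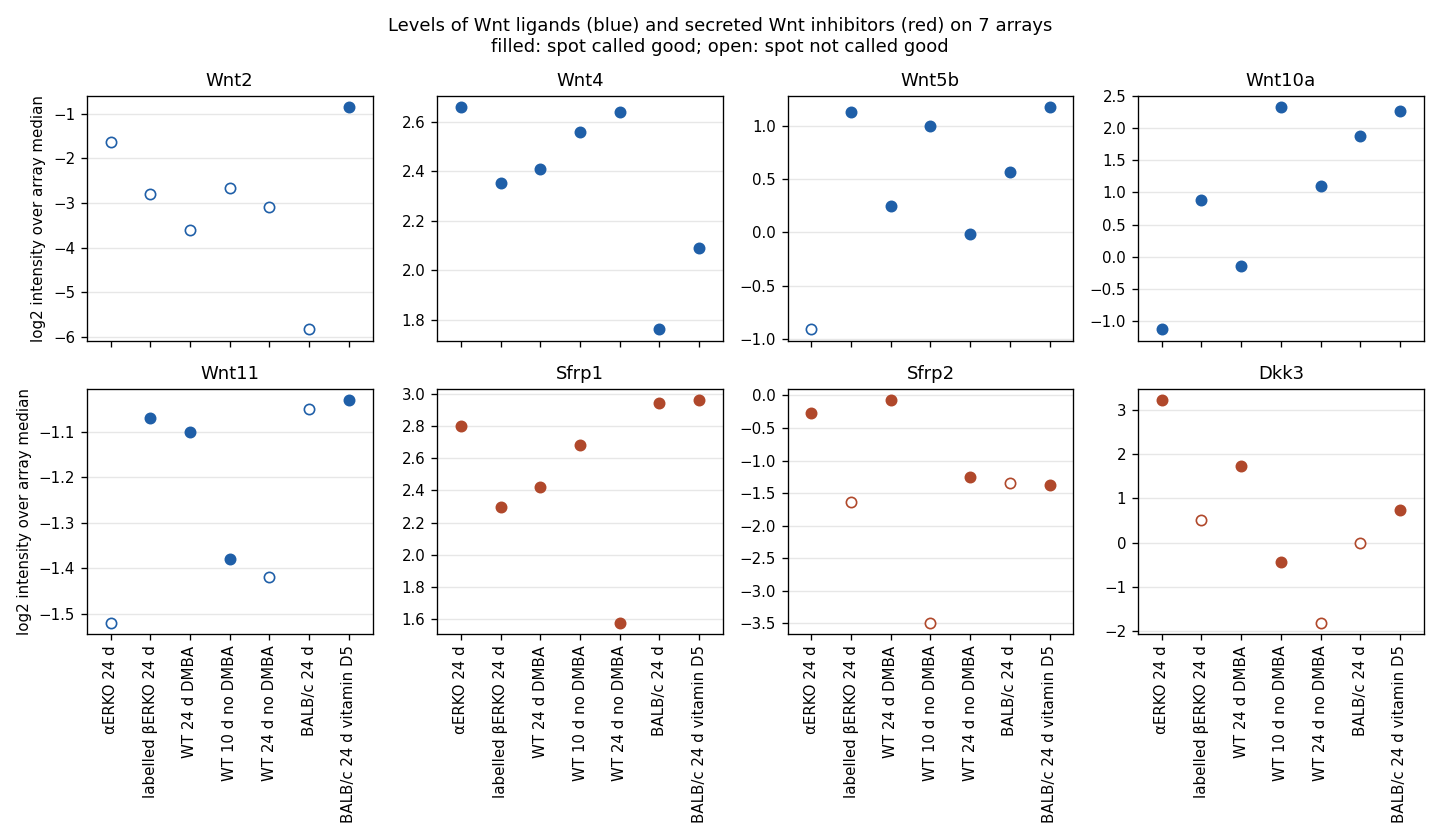
Level of each of the 8 genes on each array, as log2 intensity over the array median (vertical axis, scaled separately for each gene), with filled points for good spots and open points for spots not called good. Wnt10a spans 3.45 and Dkk3 5.04 log2 units, whereas Wnt4 spans 0.90, and Wnt11 lies near the detection limit throughout.

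Wnt4, the progesterone-responsive ligand, was the steadiest of the well-measured ligands. Its probe was good on all 7 arrays, at 2.66 in αERKO glands, 2.64 and 2.56 in WT glands without DMBA at 24 and 10 days, 2.41 in WT glands with DMBA, 2.35 on the array labelled βERKO, and 2.09 and 1.76 in BALB/c glands with and without vitamin D5. The order puts both BALB/c arrays lowest, and the other 5 arrays lay between 2.35 and 2.66, where neighbours do not differ beyond the error given above. αERKO glands were 0.24 above WT glands with DMBA and the array labelled βERKO was 0.06 below them on the log2 scale, both smaller than the SD between probes of an accession. BALB/c glands were 0.88 below WT glands at 24 days without DMBA, a 1.84-fold lower level that exceeded that SD of 0.33 but not 2-fold.

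Wnt5b, a ligand of the β-catenin-independent branch, was low in αERKO glands. Levels were 1.18 in BALB/c glands with vitamin D5, 1.13 on the array labelled βERKO, 1.00 in WT glands at 10 days, 0.57 in BALB/c glands, 0.25 in WT glands with DMBA and -0.01 in WT glands at 24 days without DMBA, all good, and -0.91 in αERKO glands, where the spot was near background. The αERKO level was therefore the only one below the range of the 5 wild-type arrays. Wnt5b was at least 2.24-fold lower in αERKO glands than in WT glands with DMBA, and the array labelled βERKO exceeded it by at least 4.11-fold. On the array labelled βERKO it was 0.88 log2 units higher than in WT glands with DMBA, above the SD of 0.38 but short of 2-fold. Between 10 and 24 days of culture without DMBA the WT level was 2.03-fold lower (log2 ratio -1.02, at the threshold, and the call was lost after quantile normalization), and the arrays with and without DMBA differed by 0.26, within the SD of 0.32. Under normexp the 3 Wnt5b calls were lost, at -0.45, -0.93 and -0.56 in the order given. The basal and myoepithelial marker list, 8 of 10 genes on the array, had its lowest summed levels on the same arrays, 188 in αERKO glands and 301 in WT glands at 24 days without DMBA, against 380 to 853 on the other 5. The median level of the list did not follow that sum, at 4.83 in αERKO glands and between 3.73 and 5.45 elsewhere. The part of basal cell content in the Wnt5b ratios was not tested.

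Wnt10a, a canonical ligand best known from skin, teeth and hair, had the widest range of the ligands with good spots on every array. Its levels were 2.33 in WT glands at 10 days, 2.26 and 1.88 in BALB/c glands with and without vitamin D5, 1.10 in WT glands at 24 days without DMBA, 0.88 on the array labelled βERKO, -0.15 in WT glands with DMBA and -1.13 in αERKO glands. The lowest level was that of αERKO glands, and the next lowest that of WT glands with DMBA. αERKO glands had 4.01-fold less Wnt10a than the array labelled βERKO (log2 ratio -2.0), and 1.97-fold less than WT glands with DMBA (-0.98), just short of 2-fold. The array labelled βERKO stood 2.04-fold above WT with DMBA (1.03), a call that was lost at 0.97 under 75th percentile scaling, quantile normalization and cyclic loess alike and at 0.53 under normexp background correction. In WT glands the level was 2.38-fold lower with than without DMBA at 24 days (-1.25) and 2.34-fold lower at 24 than at 10 days without DMBA (-1.22). Under normexp these 3 calls were lost too, at -0.83 for αERKO over the array labelled βERKO, -0.68 for DMBA and -0.91 for culture time. Neither BALB/c over WT glands (0.78) nor vitamin D5 (0.38) reached 2-fold.

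Basal markers were mixed in how they went with Wnt10a. The keratin Krt14 was at 8.0 and 7.27 in BALB/c glands with and without vitamin D5, 7.80 in WT glands at 10 days, 6.54 on the array labelled βERKO, 6.48 in WT glands at 24 days without DMBA, 5.19 in WT glands with DMBA and 2.77 in αERKO glands. Krt5, its partner keratin, was 5.16 in αERKO glands and between 6.43 and 8.82 elsewhere. The 2 lowest arrays and the 3 highest were the same for Wnt10a and Krt14. Acta2, the smooth muscle actin of myoepithelium and vessels, went otherwise, highest in WT glands with DMBA (6.68) and lowest in WT glands at 10 days (4.62). With over without DMBA, 4 of the 8 basal and myoepithelial genes were past 2-fold higher and 2 lower, with a median log2 ratio of 1.21, where Wnt10a was at -1.25. In αERKO over WT glands with DMBA 0 of 8 were higher and 5 lower, with a median of -1.17. The part of basal cell content in the Wnt10a levels was not tested.

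**Figure D2:**
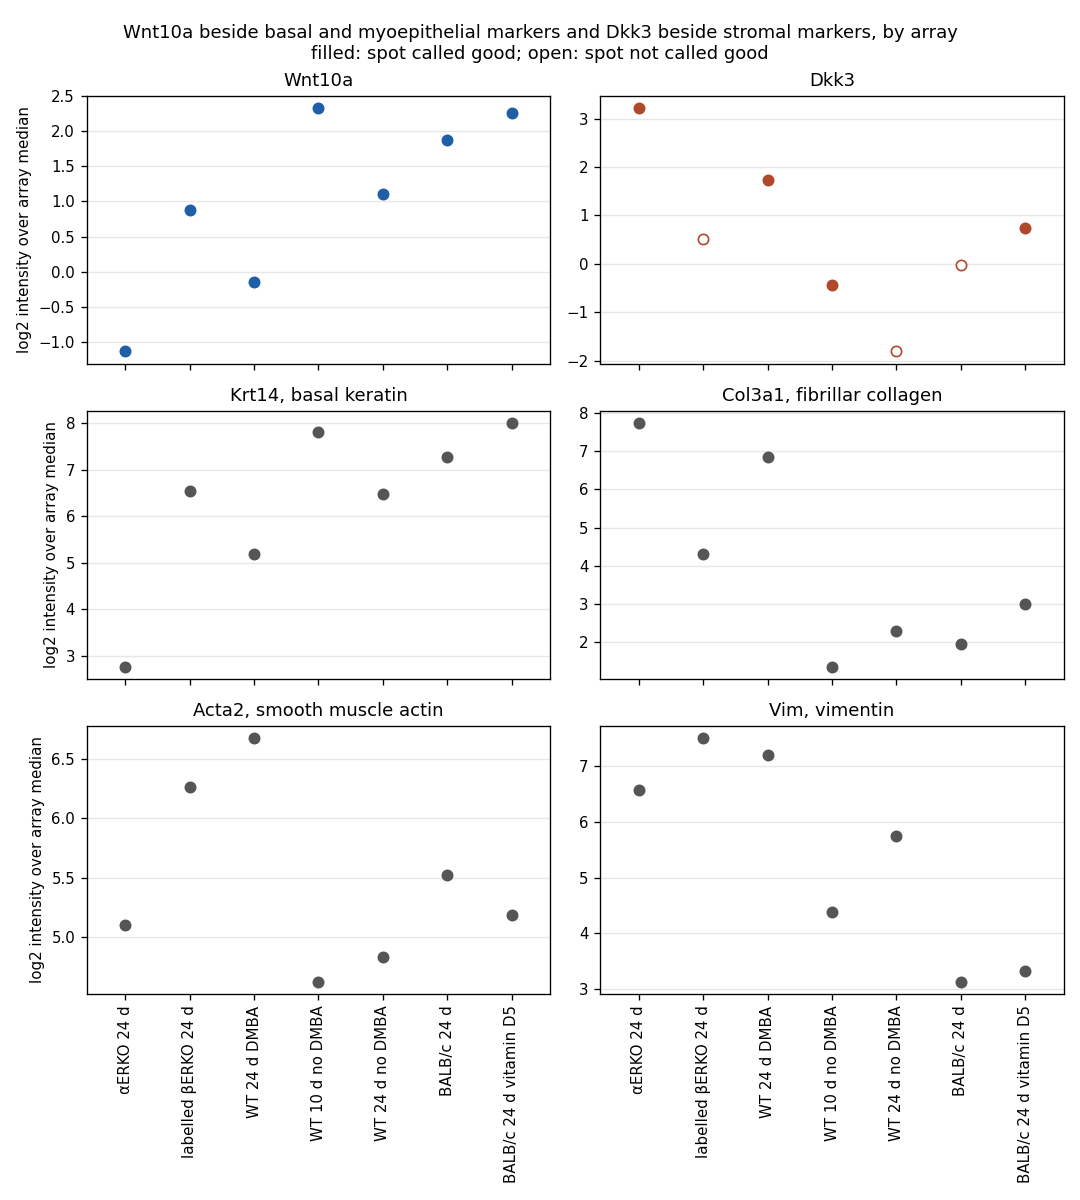
Levels of Wnt10a above those of Krt14, a basal keratin, and Acta2, smooth muscle actin (left), and of Dkk3 above those of Col3a1, a fibrillar collagen, and Vim, vimentin (right), on the same 7 arrays, as log2 intensity over the array median with open points for spots not called good. Wnt10a and Krt14 are both lowest in αERKO glands (-1.13 and 2.77), where Dkk3 and Col3a1 are highest (3.22 and 7.74), whereas Acta2 is highest in WT glands with DMBA (6.68) and Vim on the array labelled βERKO (7.51).

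Wnt2 and Wnt11 were at or near background, and little can be said of them. Wnt2, a ligand of stromal origin in many organs, was good on 1 of 7 arrays, BALB/c with vitamin D5 (-0.85), at least 1.92-fold above BALB/c without it. On the other 6 arrays its spot was near background, with readings from -5.83 to -1.64, whose order carries no information. Wnt11, a β-catenin-independent ligand, was good on 4 arrays, at -1.03 in BALB/c glands with vitamin D5, -1.07 on the array labelled βERKO, -1.10 in WT glands with DMBA and -1.38 in WT glands at 10 days. It read -1.52 in αERKO glands, -1.42 in WT glands at 24 days without DMBA and -1.05 in BALB/c glands, where its spot was near background. Of its ratios only that of the array labelled βERKO over WT with DMBA came from spots good on both arrays (0.03). The others rest on 1 good spot, and those of αERKO glands are bounds. None of them was past 2-fold. For BALB/c over WT glands the spot was good on neither array, and no ratio was taken.

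Among the secreted inhibitors, Sfrp1 was bright everywhere. Levels were 2.96 and 2.94 in BALB/c glands with and without vitamin D5, 2.80 in αERKO glands, 2.68 in WT glands at 10 days, 2.42 in WT glands with DMBA, 2.30 on the array labelled βERKO and 1.58 in WT glands at 24 days without DMBA. WT glands at 24 days without DMBA thus stood alone at the low end, and the other 6 arrays lay between 2.30 and 2.96. Against that low array Sfrp1 was 2.56-fold higher in BALB/c glands (1.36) and 1.79-fold higher in WT glands with DMBA (0.84), and the low array was 2.13-fold below WT glands at 10 days (-1.09, and -0.87 under normexp, where that call was lost). Those 3 comparisons share the low array and are not separate support. αERKO glands (0.38) and the array labelled βERKO (-0.13) differed from WT glands with DMBA by less than the SD between probes. Vitamin D5 gave a log2 ratio of 0.02.

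Sfrp2, the close relative of Sfrp1 and mainly a product of fibroblasts, was highest in WT glands with DMBA (-0.07) and in αERKO glands (-0.27). It was also good in WT glands at 24 days without DMBA (-1.26) and in BALB/c glands with vitamin D5 (-1.38), and near background on the array labelled βERKO (-1.64), in BALB/c glands (-1.34) and in WT glands at 10 days (-3.49). Sfrp2 was 2.28-fold higher with than without DMBA in WT glands (1.19). On the array labelled βERKO it was at least 2.93-fold lower than in WT glands with DMBA and at least 2.56-fold lower than in αERKO glands. Under normexp all 3 calls were lost, at 0.41, -0.48 and 0.40 on the log2 scale. αERKO and WT glands with DMBA differed by -0.19, within the SD of 0.61.

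Dkk3, a Dickkopf protein that diverges from its family and whose effect on Wnt signalling depends on the setting, differed widely between arrays. It read 3.22 in αERKO glands, 1.73 in WT glands with DMBA, 0.74 in BALB/c glands with vitamin D5 and -0.44 in WT glands at 10 days, all good. The spot was near background in WT glands at 24 days without DMBA (-1.81), and irregular in shape, though not dim, on the array labelled βERKO (0.52) and in BALB/c glands (-0.02). Dkk3 was 2.81-fold higher in αERKO glands than in WT glands with DMBA (1.49), which exceeds the SD of 0.61. With DMBA the WT level was at least 10.2-fold above that without DMBA at 24 days. Under normexp that log2 ratio was 1.63 in place of 3.35. The level at 24 days without DMBA was in turn at least 2.26-fold lower than at 10 days. Against the irregular spot of the array labelled βERKO, αERKO glands were 6.49-fold higher and WT glands with DMBA 2.31-fold higher. For αERKO that log2 ratio was 1.92 under normexp in place of 2.70. The calls for culture time (-0.34) and for the array labelled βERKO over WT with DMBA (-0.84) were lost under normexp.

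Stromal markers were high on some of the arrays where Sfrp2 and Dkk3 were high, but their summed level did not follow the same order. The 12 fibroblast genes of a marker list, all on the array and 9 to 12 of them good, summed to 556 in αERKO glands, 441 in WT glands with DMBA and 275 on the array labelled βERKO, and to between 43.4 and 80.1 on the other 4 arrays. The array labelled βERKO, the third in that sum, had Sfrp2 near background and less Dkk3 (0.52) than BALB/c glands with vitamin D5 (0.74), whose sum was 70.1. By median level of the list these arrays were closer, at 2.39 for the array labelled βERKO and 2.02 for BALB/c with vitamin D5. From 10 to 24 days without DMBA the sum went from 49.5 to 80.1 but the list's median level from 1.04 to 0.64, while Dkk3 was lower. Gene by gene, 12 of 12 were past 2-fold higher with than without DMBA, with a median log2 ratio of 3.8 over those good on both arrays. For the array labelled βERKO over WT with DMBA 0 were higher and 9 lower (-1.64). For αERKO over the array labelled βERKO 9 were higher and 0 lower (1.85). For αERKO over WT with DMBA 3 were higher and 2 lower (0.36). The collagen gene Col3a1 was at 7.74 in αERKO glands, 6.84 in WT glands with DMBA and 4.31 on the array labelled βERKO, against 1.36 to 3.00 on the rest. Dcn, which encodes the matrix proteoglycan decorin, was also highest in αERKO glands (6.86) and WT glands with DMBA (5.44), and lowest in WT glands at 24 days without DMBA (1.19). Vim, the mesenchymal filament gene, was highest on the array labelled βERKO (7.51), with 7.20 in WT glands with DMBA and 6.57 in αERKO glands.

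Other cell types moved with the same arrays. Beside the skeletal muscle and adipocyte levels given above, T and B lymphocyte genes (9 on the array) summed to 61.3 in αERKO glands and to between 12.5 and 16.0 elsewhere. Endothelial genes (9 on the array) summed to 130 in WT glands with DMBA and 114 in αERKO glands, against 12.2 to 50.8 elsewhere. Macrophage genes (9 on the array) summed to 844 in WT glands with DMBA against 136 to 318 elsewhere. What part these tissues had in the Dkk3 and Sfrp2 ratios was not tested.

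Calls past 2-fold were counted over the 8 genes in each comparison, and the comparisons share arrays. Of the calls that follow, those of Dkk3 in αERKO over both other arrays and with over without DMBA, and that of Sfrp1 in BALB/c glands, also held under normexp, and no other did. For αERKO over WT with DMBA, 1 of 7 genes that could be called was higher (Dkk3) and 1 lower (Wnt5b), where 9.53% of all 12189 genes tested were higher and 12.9% lower. For the array labelled βERKO over WT with DMBA, 1 of 7 was higher (Wnt10a) and 2 lower (Sfrp2 and Dkk3), against 5.75% and 5.27% of all genes. For αERKO over the array labelled βERKO, 2 of 7 were higher (Sfrp2 and Dkk3) and 2 lower (Wnt5b and Wnt10a), against 10.3% and 18.1%. The inhibitors called there were higher and the ligands called were lower, but only the Wnt10a call came from spots good on both arrays. Sfrp1 (0.50), Wnt4 (0.30) and Wnt11 (-0.40) were not past 2-fold. The median log2 ratio of the members good on both arrays was 0.24, 0.03 and 0.30 in these 3 comparisons, over 5, 5 and 3 genes, and that of all genes -0.15, 0.15 and -0.30.

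For WT with over without DMBA, 2 of 7 members were higher (Sfrp2 and Dkk3) and 1 lower (Wnt10a), against 9.73% and 6.61% of all genes. Tissue markers moved there too, with 12 of 12 fibroblast, 9 of 11 adipocyte, 7 of 9 macrophage and 7 of 8 endothelial genes higher. None of these was lower, while 6 of 12 luminal genes were. What part they had in the members' ratios was not tested. For 24 over 10 days without DMBA, 0 of 7 were higher and 4 lower (Wnt5b, Wnt10a, Sfrp1 and Dkk3), against 3.74% and 2.89%. Sfrp2, near background at 10 days, was counted by its bound of 0.47, and read past 2-fold higher at 24 days under cyclic loess (1.24) and with no bound (2.23). Lower levels at the end of the insulin-only phase thus covered 2 ligands and 2 inhibitors, and the median of the 4 members good on both arrays was -1.06, beside 0.15 over all genes. Tissue markers moved in the same comparison: 9 of 11 adipocyte genes and 4 of 9 macrophage genes were past 2-fold higher at 24 days, and of the 8 basal genes 2 were higher and 4 lower, with a median of -0.54. Their part in the members' ratios was not tested. For BALB/c over WT at 24 days, where the WT glands had no DMBA, 1 of 5 members was higher (Sfrp1) and 0 lower, against 4.33% and 10.7%, and Wnt2, Wnt11 and Dkk3 were good on neither array. With vitamin D5 0 of 8 members were past 2-fold in either direction, against 2.83% higher and 2.97% lower of all genes. Wnt2 was counted there by its bound of 0.94, and read 1.13 under quantile normalization, 3.31 under cyclic loess and 4.97 with no bound. The members' medians in these last 2 comparisons were 0.68 and 0.36, over 4 genes each, and those of all genes -0.33 and 0.16. No count over so few genes on single arrays is read here as particular to them.

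**Figure D3:**
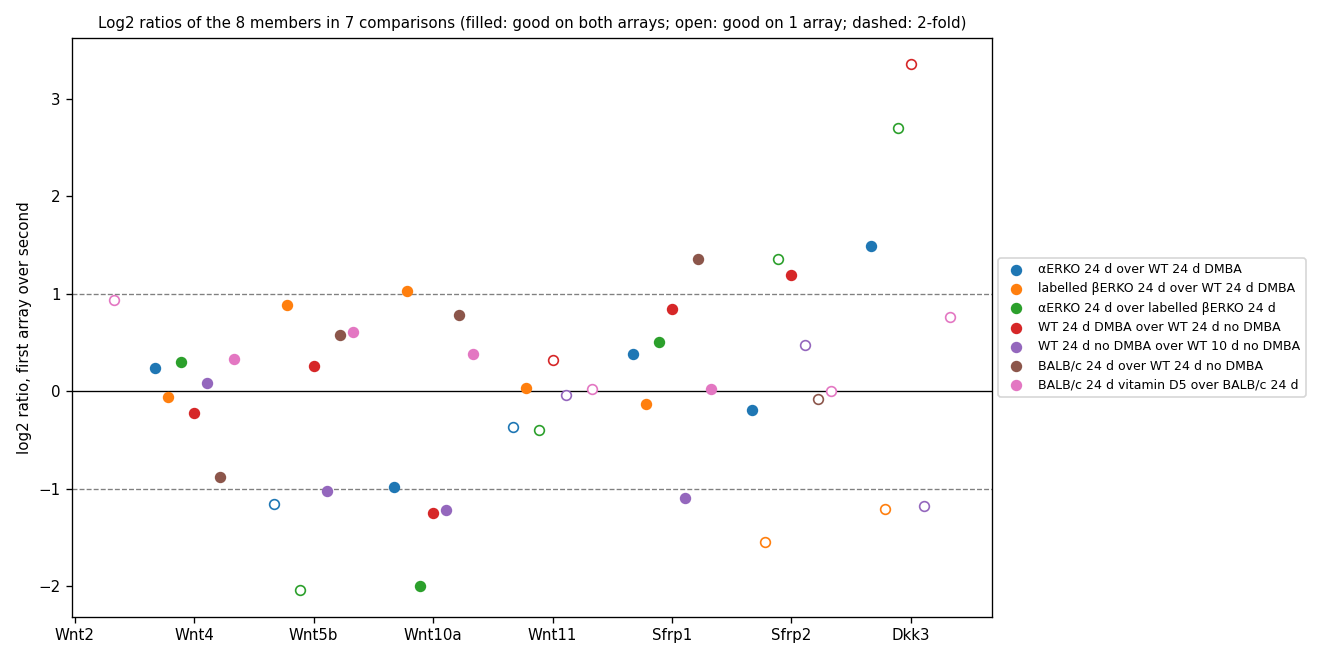
Log2 ratio of each gene in each of the 7 comparisons, first-named array over second, with filled points for probes good on both arrays, open points for probes good on 1 (bounds where the other spot read below the lowest good spots) and dashed lines at 2-fold. The bound of Dkk3 for WT with over without DMBA lies at 3.35, and all Wnt4 points lie between the dashed lines.

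Set against all 5 wild-type arrays, whose range includes culture time, DMBA, strain and vitamin D5, 0 of 8 members were lower on both knockout arrays and 0 higher on both, where 4.89% of 13244 genes were lower and 8.4% higher. αERKO glands alone were below that range for 3 members (Wnt5b, Wnt10a and Wnt11) and above it for 2, Dkk3 and Wnt4, the latter at 2.66 against 2.64 on the highest wild-type array. For Wnt11 the αERKO spot and the lowest wild-type spot were both near background, so its place has no weight, and the count was 2 in place of 3 under 75th percentile scaling and under normexp. That is near the background, since 37.6% of all genes were below and 23.5% above on that array. The array labelled βERKO lay inside the wild-type range for all 8 members, against 10.1% of genes below and 21.4% above.

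The rest of the pathway was followed through 84 genes on lists grouped by role, of which 69 were on the array. In αERKO over WT glands with DMBA, 5 of 58 were past 2-fold higher and 10 lower, with a median of -0.42 over those good on both arrays, beside 9.53% higher, 12.9% lower and a median of -0.15 over all genes. Of 6 other secreted inhibitors 2 were higher and 1 lower, where among probes good on both arrays Wif1, which binds Wnts directly, was lower (-3.22) and Sfrp5 higher (1.11). Sfrp4 was good in αERKO glands (0.22) and near background in WT glands with DMBA. Of the other ligands Wnt2b was higher (1.02). Of 16 signal transducers 0 were higher and 4 lower, among them Ctnnb1, which encodes β-catenin (-1.71), and the kinase gene Csnk1e (-2.98). Of 11 canonical targets 2 were higher and 2 lower, with Nkd1, a feedback inhibitor, higher (1.33) and Myc lower, at 2.51 in αERKO glands against 3.86. None of 11 receptors was higher and 2 were lower.

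Wif1 was high on the WT array with DMBA alone, at 3.05 there and between -0.17 and 0.30 on the other 6 arrays. Its ratio was accordingly -2.95 for the array labelled βERKO over WT with DMBA, and 2.82 for WT with over without DMBA. Nkd1 was at 2.88 in αERKO glands, 1.55 in WT glands with DMBA and 0.62 on the array labelled βERKO, and between -0.84 and -0.15 on the other 4, the same 3 arrays that were highest in fibroblast genes. Ctnnb1 was at 2.15 in αERKO glands and between 3.86 and 4.69 on the others.

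The array labelled βERKO over WT with DMBA had 3 of 60 pathway genes higher and 4 lower, beside 5.75% and 5.27% of all genes, with the targets Procr (2.03) and Ccnd1 (1.05), the latter the cyclin D1 gene, higher, and the transcription factor Tcf7l2 (-1.60) and the β-catenin destruction complex gene Apc (-1.38) lower. In αERKO over the array labelled βERKO, 5 of 56 were higher and 12 lower, the most of any comparison, beside 10.3% and 18.1% of all genes. Higher were Nkd1 (2.26), Tcf7 (1.05) and the inhibitor Sfrp4 (1.02) among others, and lower, among probes good on both arrays, Csnk1e (-2.51), the target Myc (-2.20) and Ctnnb1 (-2.05) were the furthest. With over without DMBA in WT glands, 4 of 61 were higher, Nkd1 (1.97) and Tcf7l2 (1.41) beside Wif1, and 5 lower, including Procr (-1.74), the receptor Fzd3 (-1.37) and Myc (-1.29), beside 9.73% and 6.61% of all genes.

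Without DMBA, 4 of 56 pathway genes were higher at 24 than at 10 days and 3 lower, beside 3.74% and 2.89% of all genes. Porcn, the enzyme that attaches the lipid to Wnts, was higher (1.48), and Ccnd1 (-1.88) and Tcf7l2 (-1.55) lower. In BALB/c over WT glands 4 of 61 were higher, Ccnd1 (1.94) among them, and 3 lower, including Porcn (-1.86) and Apc (-1.02), beside 4.33% and 10.7% of all genes. With vitamin D5, 3 of 60 were higher, the ligand Wnt9a (1.31) among them, and 5 lower, including the inhibitor Sostdc1 (-1.18), beside 2.83% and 2.97% of all genes. Under normexp fewer pathway genes were past 2-fold in every comparison, and none with vitamin D5, with the counts given in the last section.

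The promoters of 6 members were found in RefSeq on build GRCm38.p6, as the 250 bases before each annotated start. They were searched on both strands for the estrogen receptor half-site GGTCA, which reads TGACC on the opposite strand, the aryl hydrocarbon receptor core GCGTG, which reads CACGC there, since DMBA is a ligand of that receptor, and the TCF/LEF core CTTTG, which reads CAAAG there. Of 32851 promoters of that length, 35.2% held GGTCA, 28.2% GCGTG and 48.6% CTTTG in either orientation, so that a match alone carries little. None of the 3 motifs overlaps another as printed. Shown is Wnt5b, low in αERKO glands, at the first of its 3 annotated starts on chr6:119544348-119544597 (minus strand). Sfrp2, which differed between the WT arrays with and without DMBA at 24 days, is shown at chr3:83766071-83766320 (plus strand). Wnt4, which stayed nearly level, is shown at chr4:137277385-137277634 (plus strand). Each reads 5′ to 3′ along its gene, with capitals for motif matches.
Wnt5b: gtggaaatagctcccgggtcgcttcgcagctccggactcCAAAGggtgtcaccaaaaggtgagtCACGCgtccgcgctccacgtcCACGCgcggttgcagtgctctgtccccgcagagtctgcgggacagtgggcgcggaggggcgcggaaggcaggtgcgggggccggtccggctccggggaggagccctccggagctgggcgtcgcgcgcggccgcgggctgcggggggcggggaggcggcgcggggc
Sfrp2: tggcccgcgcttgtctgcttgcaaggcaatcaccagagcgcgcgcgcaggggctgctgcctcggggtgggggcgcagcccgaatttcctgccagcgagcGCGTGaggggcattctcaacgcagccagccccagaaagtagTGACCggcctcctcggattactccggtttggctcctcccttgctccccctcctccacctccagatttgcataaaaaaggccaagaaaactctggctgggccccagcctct
Wnt4: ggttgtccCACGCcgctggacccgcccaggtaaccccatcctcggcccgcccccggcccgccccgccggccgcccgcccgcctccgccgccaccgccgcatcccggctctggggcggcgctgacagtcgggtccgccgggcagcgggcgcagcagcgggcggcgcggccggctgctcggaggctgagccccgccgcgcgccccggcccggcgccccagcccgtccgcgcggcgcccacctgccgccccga

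The Wnt5b stretch held 2 copies of GCGTG and 1 of CTTTG but not GGTCA, whereas the starts at chr6:119467212-119467461 and chr6:119449387-119449636 each held 1 GGTCA. Which of these starts gives the transcript read by the probe is not known. Sfrp2 held 1 GGTCA and 1 GCGTG, and Wnt4 held 1 GCGTG. Wnt2 held none of the 3, Wnt6 held 1 GCGTG, and the starts of Wnt11 held 2 copies of CTTTG at one and 1 GCGTG at the other. These matches describe the letters only and were not set against binding data.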

How the data were processed

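RNA of cultured mammary glands was hybridized to 7 CodeLink arrays, 1 per group, so that no sample is a replicate of another and the number of arrays limits the precision. The authors scanned the arrays and deposited an intensity for every spot, from which its local background had been subtracted, together with the CodeLink software's verdict on the spot's quality. Each intensity was scaled to its array's median over the 34967 gene probes, following the study's methods. Scaled values of 0 or less were set to the smallest positive value before log2 was taken. Median intensities lay between 39.1 and 53.0, over local backgrounds between 80 and 83, so that dim probes are imprecise. The deposited series table, whose rows do not name probes, was not used.

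Probes were named by accession through RefSeq's mouse gene table (GRCm38.p6), which named 14763 of the 15553 probes that carry such an accession and gave 13971 symbols. A gene was given by its probe with the highest mean log2 value. The 10 genes and all gene lists were chosen with earlier results of these data known. A gene was called past 2-fold, the study's threshold, from probes good on both arrays by the ratio. From a probe good on 1 array it was called by the good value over the higher of the other array's lowest good value and the probe's own. A probe good on neither array was not tested. Genes named are all members, Esr1, Esr2, the 3 pathway genes each way with the largest called ratios among probes good on both arrays of a comparison, and up to 3 genes per cell type list with the highest mean level. The levels of pathway genes across arrays, and those of any marker gene outside this rule, were chosen after their values were seen.

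Alternatives were the 75th percentile, quantile normalization, cyclic loess, normexp with an offset of 50, the authors' normalized intensities, no bound, probes good on both arrays only, the mean of a gene's probes, and thresholds of 3-fold and 1.5-fold. Those for the pathway lists, the order of the arrays and the wild-type range were chosen after seeing the data. The counting was tested on simulated data. Python 3.11.15, pandas 2.3.3, numpy 2.4.6, matplotlib 3.10.9, R 4.3.3 and limma 3.58.1 were used.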

Additional observations from a re-analysis of the deposited data

How the results depend on the processing

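With 1 array per group no replicate could be left out, and no paired analysis was possible because each group has a single array. Of the ratios of single members under the alternatives, 344 moved by less than the SD between probes of an accession and 22 by more, 18 of these under normexp. No ratio past 2-fold changed its sign. Many of the 344 could not move and do not measure stability. Each member had 1 probe, so the mean of a gene's probes repeated the main ratio. The settings for dim probes cannot change a ratio from probes good on both arrays. The authors' normalized intensities gave nearly the same ratios as the median scaling. Normexp with an offset of 50 adds a value about as large as the array medians and so by construction draws ratios of dim probes toward 0. Under it the members past 2-fold went from 2 to 1 for αERKO over WT with DMBA, from 3 to 0 for the array labelled βERKO over WT with DMBA, from 4 to 1 for αERKO over the array labelled βERKO, from 3 to 1 for DMBA and from 4 to 0 for 24 over 10 days. Also under normexp, pathway genes past 2-fold went, in the order of the comparisons, from 15, 7, 17, 9, 7, 7 and 8 to 5, 3, 8, 4, 1, 1 and 0, αERKO glands were highest for 1 member and above the wild-type range for 1 in place of 2, and the array labelled βERKO was above it for 1 in place of 0. With probes good on both arrays only, the first 3 comparisons had 1, 1 and 1 members past 2-fold, since bounds and ratios to spots not called good were left out. At 3-fold the count was 0 for αERKO and 0 for the array labelled βERKO, each over WT with DMBA. It was 1 for DMBA, 0 for 24 over 10 days and 0 for BALB/c over WT. At 1.5-fold it was 3 for BALB/c over WT and 3 for vitamin D5. For vitamin D5 quantile normalization, cyclic loess and no bound each gave 1 member in place of 0, which was Wnt2. Quantile normalization gave 4 and cyclic loess 13 pathway genes in place of 7 for the array labelled βERKO over WT with DMBA, and cyclic loess 14 in place of 9 for DMBA. The cause of these last shifts was not tested. Over all alternatives the Wnt10a log2 ratio of αERKO over WT with DMBA lay between -1.0 and -0.30 and that of Dkk3 between 1.08 and 1.63, and the Dkk3 ratio of WT with over without DMBA lay between 1.63 and 3.61. The Wnt10a call of the array labelled βERKO over WT with DMBA was lost under the 3 scalings that replace the median (0.97). Spots near background limit Wnt2, Wnt11 and Sfrp2.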
